A study of Mus musculus with 18 samples.

Results

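Dermal fibroblasts make and remodel the collagen-rich matrix of the skin, and the skin holds several kinds of them that differ in secreted factors, enzymes and matrix genes. Pi16, a secreted peptidase inhibitor, marks fibroblasts of the connective tissue around vessels and fascia, together with Dpp4, Cd248 and Sema3e, while Cxcl14, Steap4 and Gdf10 mark other fibroblasts. The cells described here were chosen by reads of Sult1e1 (estrogen sulfotransferase, which inactivates estrogens), Igfbp3 (a carrier of insulin-like growth factors), Inmt (a methyltransferase of indoleamines), Dkk2 (a secreted modulator of Wnt signaling) and Penk (the precursor of enkephalin peptides), with little or no Pi16. Most cells carry a circadian clock, in which Arntl and Clock drive Per, Cry and Nr1d genes that repress them in turn, with output factors such as Dbp, Tef and Hlf downstream.

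Single-cell libraries came from the dorsal dermis of wild-type male C57BL/6J mice, adults in the resting (telogen) phase of the hair cycle, kept in 12 h of light and 12 h of dark. One mouse was used per library, live cells were sorted after collagenase digestion, and each of the zeitgeber times ZT2, ZT6, ZT10, ZT14, ZT18 and ZT22 (hours after lights on) had 3 replicate libraries, 18 in all. Libraries held 318 to 2322 barcodes, and 4850221 to 40827442 unique molecular identifiers (UMIs, one per captured transcript). A gated fibroblast had 850 to 7800 genes, under 13% mitochondrial UMIs, at least 20 UMIs of Col1a1, Col1a2 and Col3a1 together, at least 1 UMI of Pdgfra (a receptor of mesenchymal cells) and 0 of Ptprc (the pan-leukocyte CD45). A gated fibroblast was a member where at least 3 of the 5 marker genes had 2 or more UMIs and Pi16 had fewer than 2. This selected 298 of 12119 gated fibroblasts (2.46%), of 16877 cells within the gene and mitochondrial limits and of 23990 deposited barcodes. They are called Pi16-low marker-positive cells below, and the other 11821 gated fibroblasts are the comparison. Since these genes chose the cells, their levels and the levels of all other genes in the same cells are given as a description, with no test.

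The 298 cells were spread unevenly. ZT2 libraries held 10, 14 and 21 of them, ZT6 libraries 33, 8 and 24, ZT10 libraries 16, 29 and 12, ZT14 libraries 5, 10 and 24, ZT18 libraries 1, 7 and 23, and ZT22 libraries 33, 23 and 5. Levels and rhythms were computed over the 13 libraries with at least 10 such cells (272 cells), which leaves 1 library at ZT18. Between the 153 pairs of libraries, the median number of shared cell barcodes was 0 and the highest was 89, between ZT6 replicate 2 and ZT10 replicate 3, with 4 for the next pair. In ZT6 replicate 2 those 89 barcodes had a median of 553 UMIs and none passed the gene and mitochondrial limits, while in ZT10 replicate 3 82 of them were gated fibroblasts and 3 were Pi16-low marker-positive. ZT6 replicate 2 had only 8 such cells and did not enter the levels or rhythms. Over all libraries, 6 of the 298 cells had a barcode that another library also held.

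The working label names these cells by Sult1e1, Igfbp3 and Inmt, but the number of markers present did not separate Pi16-low from Pi16-positive fibroblasts. At least 3 of the markers were present at 2 or more UMIs in 5123 of the 12119 gated fibroblasts (42.3%). Of those 5123, 298 (5.82%) had fewer than 2 Pi16 UMIs, against 402 of 6996 (5.75%) among cells with fewer than 3 markers. It was the low Pi16 count that was rare, since 11419 of 12119 gated fibroblasts (94.2%) had 2 or more Pi16 UMIs. The name Pi16-low marker-positive is therefore kept to the rule, and no cell type is implied.

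Members near the limits of the rule were frequent. Pi16 was 0 in 202 cells and 1 in 96, while 87 cells with at least 3 markers lay just outside with 2 to 4 Pi16 UMIs. Exactly 3 markers were present in 177 members, 4 in 100 and 5 in 21, and a further 183 Pi16-low cells had exactly 2 markers. The commonest combination was Igfbp3, Inmt and Penk alone, in 117 cells (39.3%), followed by those 3 with Sult1e1 in 54 cells (18.1%) and by those 3 with Dkk2 in 37 (12.4%). Only 21 members (7.05%) carried all 5 markers, and 29.9% had both Sult1e1 and Igfbp3 at 2 or more UMIs.

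Inmt was the marker found in the most members. It reached 2 UMIs in 98.0% of members and 56.2% of other fibroblasts, and at 1 UMI or more it was in 98.99% of members against 6.33% of Ptprc-positive cells without Pdgfra, which have a lower median depth (11470 UMIs per cell, against 21179). Penk reached 2 UMIs in 95.6% of members and 54.4% of other fibroblasts, and Igfbp3 in 82.6% and 42.2%. Sult1e1 was at 2 UMIs in 43.6% of members (95% exact interval 37.9 to 49.5%, counting error only) and 31.0% of other fibroblasts. Dkk2 was at that level in 27.9% of members and 31.6% of the others, so it was no more frequent among the cells it helped to choose.

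Levels of the chosen genes are given as CPM, the UMIs of a gene summed over the cells of a library and scaled to a common total, a scale that does not depend on transcript length because each transcript is counted once at its 3' end. Inmt (chr6:55170626-55175043, minus strand, build mm10) had a lowest, median and highest level of 829, 1347 and 3443 CPM over the 13 libraries, against 169, 342 and 472 CPM in the other fibroblasts of the same libraries. The ranges did not overlap. Igfbp3 (chr11:7206086-7213923, minus strand) spanned 428, 772 and 1668 CPM against 145, 296 and 503 CPM, higher in every one of the 13 libraries although the ranges overlapped. Penk (chr4:4133531-4138819, minus strand) spanned 293, 400.4 and 846 CPM against 129, 168 and 261 CPM, without overlap. Sult1e1 (chr5:87575969-87591594, minus strand) varied between libraries, with 74.9, 371 and 557 CPM against 82.1, 180 and 248 CPM, and was above the other fibroblasts in 11 of 13 libraries. Dkk2 (chr3:132085292-132180304, plus strand) was below them in 10 of 13, at a mean of 66.6 CPM ± 35.3 (SD, n = 13 libraries) against 94.6 ± 29.3. Abca8a, a membrane transporter named with the markers but not used by the rule, was at 267 CPM ± 99.01 against 224 ± 45.3, higher in 9 of 13 libraries and within the spread between libraries. Pi16 (chr17:29317680-29330593, plus strand) was at 15.7 CPM ± 8.90 by construction and at 5919 CPM ± 1054 in the other fibroblasts.

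Genes of other dermal fibroblasts moved with Pi16. At least 2 of Cxcl14, Steap4 and Gdf10 were present at 2 or more UMIs in 244 of the 298 cells (81.9%) and in 471 of the 11821 other fibroblasts (3.98%), so that Pi16-low marker-positive cells were 34.1% of the 715 gated fibroblasts with that pattern. Cxcl14 is a chemokine of resting tissue, Steap4 a metalloreductase and Gdf10 a ligand of the TGF-beta family. Conversely, at least 2 of Pi16, Sema3e and Cd248 were present in 3 cells (1.01%), against 94.99% of the other fibroblasts. The tendon- and cartilage-type matrix genes Cilp, Thbs4 and Fmod met the same count in 18 cells (6.04%), against 1.39%.

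Among all 5123 fibroblasts with 3 or more markers, these genes differed between classes of the Pi16 count on both sides of the rule's limit. In Ptprc-positive cells without Pdgfra, at a lower median depth, Pi16 had 1 or more UMIs in 35.6% and 2 or more in 10.6%. The lowest classes can therefore hold background UMIs, and their order is not read as graded expression of Pi16. Cxcl14 fell from 7.49 UMIs per 10000 in the 202 cells at 0 Pi16 UMIs to 6.26 at 1 and 5.80 at 2 to 4, then to 2.89 at 5 to 19 and 0.0277 in the 915 cells at 200 or more. Steap4 went from 4.01 to 0.0561 and Gdf10 from 6.69 to 0.334 between the same ends. Dpp4, a membrane peptidase, rose from 0.732 to 9.77 and Sema3e, a secreted guidance factor, from 0.00932 to 1.48. The 87 cells just outside the limit were thus closer in Cxcl14 to the members than to cells with high Pi16. Abca8a showed no such order, with 2.65, 2.51, 3.53 and 3.66 UMIs per 10000 over the first 4 classes and 2.89 in the last.

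**Figure D1:**
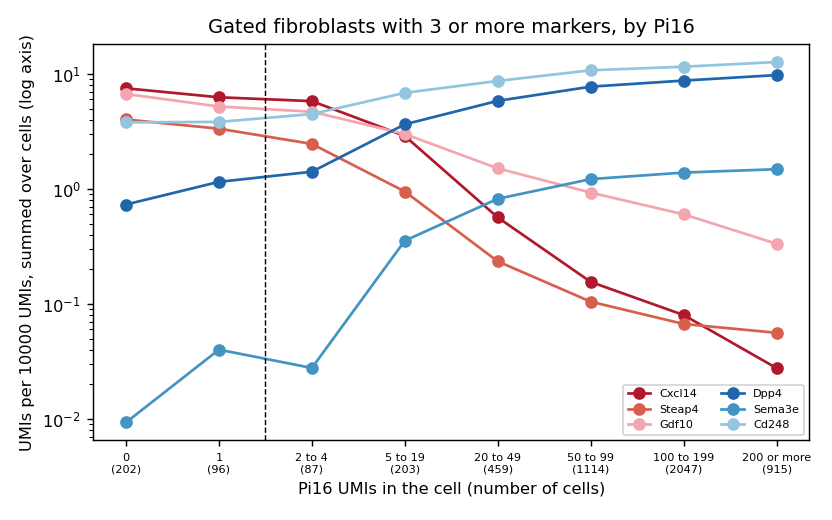
UMIs per 10000 UMIs (log axis), summed over gated fibroblasts with 3 or more markers, for 6 genes against the Pi16 UMIs of the cell, with the number of cells in parentheses and a dashed line at the limit of the rule. Cxcl14, Steap4 and Gdf10 fall and Dpp4, Sema3e and Cd248 rise with Pi16, between 0 and 200 or more Pi16 UMIs; in Cxcl14 the class of 2 to 4 UMIs (87 cells, 5.80) is near the members (7.49 and 6.26).

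Across all genes, differences in level were wide. Of 2915 genes with a mean of at least 50 CPM in either group and not used by the rule, 204 (7%) were higher in the Pi16-low marker-positive cells in all 13 libraries and 603 (20.7%) were lower in all 13, and the median log2 ratio over these genes was -0.16. The 20 genes with the highest ratios follow. Tmem176a and Tmem176b, a pair of neighboring membrane protein genes, were at 89.4 CPM ± 41.8 and 144 ± 52.5 (SD, n = 13), against 1.48 ± 1.103 and 3.17 ± 1.63. Agt, angiotensinogen, was at 311 ± 80.5 against 9.75 ± 5.70. Apoe, an apolipoprotein, had a lowest, median and highest level of 818, 1445 and 3134 CPM against 25.5, 40.5 and 119 CPM, and a median log2 ratio of 4.81 (3.74 to 6.53 over libraries). Its lowest library among the members lay above its highest among the other fibroblasts. Steap4 spanned 238, 380 and 612 CPM against 7.45, 13 and 16.4 CPM, and Cxcl14 (chr13:56288643-56296551, minus strand) 271, 635 and 1709 CPM against 15.4, 35.0 and 50.8 CPM. Neither gene's ranges overlapped.

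The other genes among the 20 highest had median log2 ratios from 4.05 (Vtn, the adhesion protein vitronectin) to 3.22 (Sned1, an extracellular matrix protein). They included the chemokines Ccl19 and Cxcl12, C4b of the complement cascade, Gas6, a ligand of the TAM receptors, and Igfbp7. Cxcl12 was at 906 CPM ± 236 against 90.0 ± 41.97, C4b at 2100 ± 456 against 228 ± 43.9, and Igfbp7 at 1812 ± 351 against 180.0 ± 30.6. Sparcl1, Adcyap1r1 (the PACAP receptor), Ralgps2, Bmper (a BMP-binding protein), Vit, Nr2f2 (the nuclear receptor COUP-TFII) and Ggt5 completed the list. The value of Ccl19 is uncertain, because its symbol belongs to more than 1 gene identifier and near-identical copies can share reads.

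At the other end, several genes were close to absent. Akr1c18, a steroid-reducing enzyme, gave 5 UMIs among 5965710 UMIs of the members in the 13 libraries, and 53395 UMIs among 232323026 in the other fibroblasts. Bmp3, a ligand of the BMP family, and Itgb7, an integrin subunit, gave 0 UMIs. With the 3 UMIs that a count of 0 allows over the group, Bmp3 was at least 152-fold lower and Itgb7 at least 104-fold lower (counting error only). Krtdap gave 3 UMIs against 40654, Chst1 4 against 25850, and Dact2, an antagonist of Wnt and TGF-beta signaling, 7 against 19773. Sema3e, Rorb and Aldh1a3, an enzyme of retinoic acid synthesis, gave 10, 8 and 24 UMIs. All of these genes were also near 0 in the Pi16-low cells with fewer than 3 markers, so their near-absence was not particular to the members. In sums over the 13 libraries, Akr1c18 was at 1.32 CPM in those cells and 0.838 in the members. Aldh1a3 was at 3.35 and 4.02 CPM, Sema3e at 1.91 and 1.68, and Bmp3 at 0 in both.

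**Figure D2:**
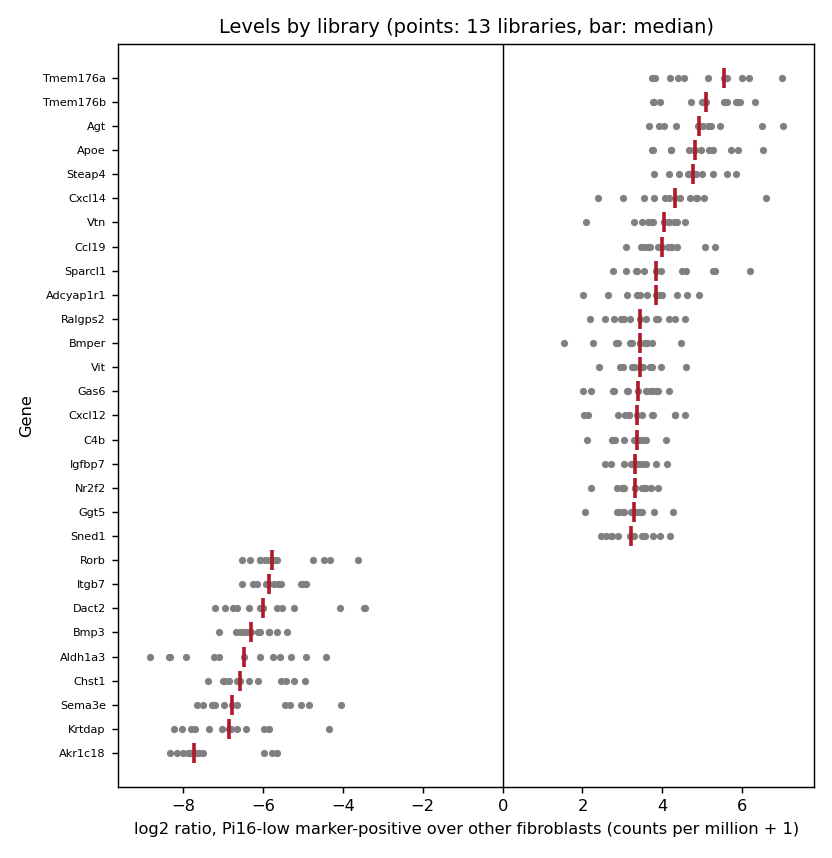
log2 ratio of the level in Pi16-low marker-positive cells to that in the other fibroblasts of the same library (CPM + 1), for the genes with the 20 highest and 9 of the 10 lowest median ratios (Pi16, used by the rule, is left out). Points are 13 libraries and bars their median. Each of these genes lies on 1 side of 0 in all 13 libraries.

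For Cxcl14, Apoe and Cxcl12, the ratio was larger against cells with Pi16 than against Pi16-low cells with fewer markers. Against marker-positive fibroblasts with 2 or more Pi16 UMIs (4825 cells), the members' median log2 ratio was 4.45 for Cxcl14 and 5.48 for Apoe. Against the 402 Pi16-low cells with fewer than 3 markers, in the 11 libraries with at least 10 cells of both kinds, it was 1.93 for Cxcl14 and 1.124 for Apoe, and 2.86 for Vtn and 2.48 for Sned1. Cxcl12 was almost level between the 2 Pi16-low groups, at a median log2 ratio of 0.18, although 3.97 above the Pi16-positive cells. Col1a1 was lower in the members than in the Pi16-low cells with fewer markers, at a median log2 ratio of -1.33. The 471 other fibroblasts with the Cxcl14, Steap4 and Gdf10 pattern held intermediate summed levels, with Apoe at 343 CPM against 1595 in the members and Inmt at 893 against 1554.

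Gene groups are described by how many members were higher or lower in all 13 libraries, against 7% and 20.7% over all genes. Of the genes linked to Pi16-positive fibroblasts, 13 of 14 measured at 50 CPM and not used by the rule were lower in all 13 libraries and none was higher, with a median log2 ratio of -2.96. Dpp4 was at 80.4 CPM against 790 and Anxa3 at 114 against 1127. The list is one of Pi16-positive fibroblasts and Pi16 is in the rule, so its direction is no separate observation. Of 22 complement and chemokine genes, 8 were higher in all libraries, 3 were lower and the rest were neither, with a median log2 ratio of 0.46. Among the 8 were C2 (566 against 64.1 CPM) and the cytokine Il6 (485 against 66.9). Cd55, Ackr3 and Il33 were the 3 that were lower. Lipid and adipogenic genes had 6 of 13 higher and 4 lower, with Lpl, lipoprotein lipase, at 788 against 381 CPM and the factors Cebpb and Cebpd both higher.

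Counted by the same direction in all 13 libraries, genes of the insulin-like growth factor axis and of the BMP and TGF-beta list went both ways. By that count, genes of the Wnt list were only lower. In the insulin-like growth factor axis, Igf1 was at 828 CPM against 179 and Igfbp7 and Irs1 were also higher in all 13 libraries, while Igfbp4, Igfbp5 and Igfbp6 were lower, Igfbp5 at 668 against 2659 CPM. None of 13 Wnt pathway genes was higher in all libraries and 6 were lower, with Sfrp2, a secreted Wnt inhibitor, at 286 against 1816 CPM and Wnt2 at 19.3 against 136. The median log2 ratio of the list was -0.27. Some of its genes had a higher median over libraries in the members, such as Sfrp1 (139 against 81.4 CPM) and Fzd4 (117 against 61.5). Among 13 BMP and TGF-beta genes, 3 were higher, among them Gdf10 (633 against 69.8 CPM) and Ltbp4, and 5 were lower. Steroid and xenobiotic enzymes had 5 higher and 5 lower of 21, with Hsd11b1, which regenerates active glucocorticoid, at 121 against 22.3 CPM and Cyp1b1 at 69.7 against 9.26. Of 6 hormone receptor genes 0 were higher in all libraries and 1, Thra, was lower, near the 7% and 20.7% over all genes.

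Of 41 matrix genes 10 were higher and 11 lower in all libraries, against 7% and 20.7% over all genes, with a median log2 ratio of 0.14, so that the lower count was near that of all genes. Basement membrane collagens Col4a1 (799 against 184 CPM), Col4a2 and Col15a1 and the proteoglycans Bgn, Lum and Dcn were among the higher ones, whereas Mfap5 (339 against 2062 CPM), Fbn1, Loxl1 and Fn1, of elastic and fibronectin fibers, were among the lower ones. Several of these genes were not particular to the members among Pi16-low cells. Against the Pi16-low cells with fewer than 3 markers, the members' median log2 ratio was -0.41 for Col15a1, -0.20 for Lum and 0.06 for Bgn, and Col15a1 was at 2 or more UMIs in 76.2% of members and 79.9% of those cells. Of 8 interferon genes 0 were higher and 3 were lower, and of 14 glucocorticoid targets 2 were higher and 1, Cdkn1c, was lower, counts too small to set apart from those shares. The 2 were the metallothioneins Mt1 (5310 against 1426 CPM) and Mt2.

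Immediate early genes are induced by tissue digestion. Of 22 measured, 10 were higher in all 13 libraries and 0 lower, against 7% and 20.7% over all genes, with a median log2 ratio of 1.20. Their summed level had a lowest, median and highest value of 20155, 34870 and 46734 CPM in the members, against 12138, 15570 and 20778 CPM in the other fibroblasts, led by Fos at 4653 CPM against 2020. In the 5 libraries with fewer than 10 such cells the order was mixed, with the members lower in ZT6 replicate 2 (18904 against 21229 CPM), ZT18 replicate 1 (12951 against 13548) and ZT22 replicate 3 (12939 against 15447), and higher in ZT14 replicate 1 (18005 against 13362) and ZT18 replicate 2 (35623 against 19084). The part of this group in the levels above was not tested. Of the markers of other cell types, no gene of the immune, muscle, endothelial, keratinocyte or mural lists reached a mean of 50 CPM over libraries in either group. Single libraries went higher for muscle genes, whose sum had a median of 23.8 CPM and a highest value of 491 CPM in the members, against 40.4 and 336 CPM in the others. Of the 16 immune genes, 5 (Ptprc, Cd3e, Cd3g, Nkg7 and Trbc2) gave 0 UMIs in the members, Ptprc by the rule. Others, such as Csf1r, Cd74 and Lyz2, were detected. The immune genes summed to a median of 23.8 CPM in the members and 28.8 in the others. Csf1r, the most abundant of them in the members, had a median of 8.27 CPM against 3.36. Of 9 keratinocyte genes 6 gave 0 UMIs in the members, among them Krt5 and Krt14, and of 9 endothelial genes 2 did, Cldn5 and Tie1. Erythroid genes summed to a median of 120.4 CPM in the members and 819 in the others, with 5499 CPM in 1 library. Of 6 Schwann cell markers, Scn7a, a sodium channel gene, was at 373 CPM against 247, higher in all 13 libraries, and of 6 melanocyte markers Mitf was at 54.7 against 39.9, while the other genes of both lists did not reach a mean of 50 CPM in either group, and Sox10, Tyr and Tyrp1 gave 0 UMIs in the members. Mural genes summed to a median of 6.49 CPM against 35.7. Scrublet scores in the range removed as doublets fell on 1 of 298 members and 173 of 11821 others. Members had a median of 21179 UMIs and 4069 genes, against 22164 UMIs and 4522 genes, and 2.30% against 2.21% mitochondrial UMIs. Thinned to 10000 UMIs, the 265 members deep enough had a median of 2722 genes and the 10807 others 2956.

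The share of Pi16-low marker-positive cells among gated fibroblasts varied with zeitgeber time. It was 2.43%, 3.00% and 1.41% in the ZT2 libraries, 4.31%, 4.47% and 3.40% at ZT6, 3.23%, 3.01% and 2.70% at ZT10, 1.91%, 1.85% and 1.59% at ZT14, 0.943%, 2.06% and 1.92% at ZT18, and 3.30%, 2.69% and 1.32% at ZT22. The 3 ZT6 libraries were higher than all 15 others, and all 3 ZT14 libraries were below all 6 of ZT6 and ZT10. With few cells per library, exact 95% intervals were wide, from 0.0239% to 5.14% in ZT18 replicate 1 with 1 of 106 cells and from 2.98% to 6.00% in ZT6 replicate 1 with 33 of 766. A 24 h cosine explained a fraction of 0.512 of the variance over 18 libraries, with an amplitude of 0.978 percentage points and a peak at ZT6.0 (permutation test with 100000 draws, p = 0.00493). Without ZT6 replicate 2, which shares barcodes with ZT10 replicate 3, the fraction was 0.447 (permutation p = 0.0173), and without ZT10 replicate 3 it was 0.519 (permutation p = 0.00709).

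Replicates 1, 2 and 3 were collected on successive days, and ZT6 had the highest share on each of them, at 4.31%, 4.47% and 3.40%, against next-highest shares of 3.30%, 3.01% and 2.70%. Neither condition of the rule, taken alone, passed the test. The share of cells with fewer than 2 Pi16 UMIs peaked at ZT6.2 (permutation p = 0.0746) and the share with at least 3 markers at ZT2.9 (permutation p = 0.0809). In the sums of all gated fibroblasts of the 18 libraries, 1697 of 12388 genes (13.7%) were rhythmic, and of the genes the rule uses only Igfbp3 was, with a peak at ZT3.7, a 2.12-fold range from trough to peak and an adjusted p of 0.00276 (edgeR). Penk followed at an adjusted p of 0.0563 (edgeR), which was 0.0271, 0.0412 and 0.0266 (edgeR) without ZT2, ZT6 and ZT18 replicate 3 in turn. The part of Igfbp3 in the share was not tested. A share is a proportion, so more of these cells and fewer other fibroblasts cannot be told apart.

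**Figure D3:**
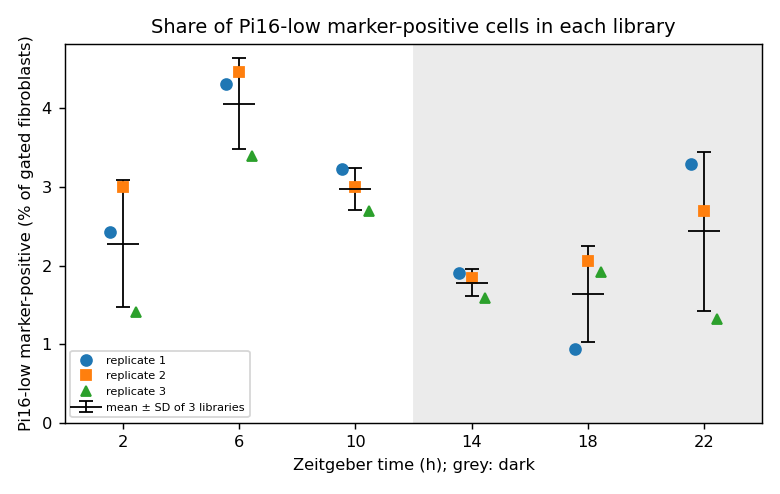
Pi16-low marker-positive cells as a percent of gated fibroblasts in each of the 18 libraries against zeitgeber time in hours (grey, dark phase), with replicates as symbols and the mean ± SD of 3 libraries in black. The ZT6 libraries lie between 3.40% and 4.47%, above all 15 others.

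Rhythms of single genes were tested on the UMIs summed over the members of each library, with a 24 h cosine and sine in edgeR (quasi-likelihood F test) and an adjusted p under 0.05 by Benjamini and Hochberg as the call. Of 5925 genes tested, 68 (1.15%) were called rhythmic in the Pi16-low marker-positive cells. In the other fibroblasts of the same 13 libraries, with 8934759 to 33001174 UMIs in the place of 186962 to 966336, it was 1254 of 13254 (9.46%), and 114 of 6179 when their UMIs were thinned to the members' totals. Of the 68 genes, 30 were also called in the other fibroblasts. Fitted peaks lay between ZT9 and ZT15 for 50 of the 68, between ZT21 and ZT3 for 11, and in the remaining hours for 7. Peaks were not counted this way in the other fibroblasts, so these hours are not read as particular to the members. With all 18 libraries, 65 of 4505 genes (1.44%) were called, 37 of them among the 68. Without ZT10 replicate 3, 62 genes were called and 33 differences in rhythm passed, and 221 and 618 genes were higher and lower in level in every library.

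The clock was the gene list with the most calls. Of 15 clock genes tested in the members 10 were called, against 1.15% of all genes, and the median range from trough to peak was 2.70 on the log2 scale, against 0.48 over all genes tested. Of the 10, only Dbp, Nr1d1, Nr1d2, Tef, Hlf and Per3 were also called with all 18 libraries. Dbp (chr7:45705088-45710203, plus strand), an output factor of the clock, was at 4.13, 3.25 and 5.98 CPM at ZT2, 60.0 and 89.5 at ZT6, 190.1, 209 and 126 at ZT10, 64.2 and 49.1 at ZT14, 15.1 at ZT18, and 2.84 and 9.53 at ZT22 in the 13 libraries. Every ZT10 library of the test was above every library of another time. Its fitted peak was at ZT10.0 with a 5.62 log2 range (adjusted p = 6.54e-07, edgeR). In the other fibroblasts the peak was at ZT9.9 with a 5.89 log2 range.

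Nr1d1 and Nr1d2, the repressors known as REV-ERBs, peaked at ZT8.6 and ZT10.3 with log2 ranges of 5.68 and 3.55 (adjusted p = 0.000288 and 4.69e-06, edgeR). Nr1d1 was at 91.3, 127 and 149 CPM in the ZT10 libraries and gave 0 UMIs in the ZT18 and ZT22 libraries of the test. Tef and Hlf, relatives of Dbp, peaked at ZT11.8 and ZT12.3, and Per3, a member of the repressive arm, at ZT11.7. In the opposite phase, Arntl, the activator, peaked at ZT22.5 (adjusted p = 0.0457, edgeR) and Nfil3, a repressor of Dbp targets, at ZT22.9 (adjusted p = 0.0118, edgeR). Arntl rested on 71 UMIs in the 272 cells of the test and Nr1d1 on 298. Bhlhe40 and Bhlhe41 were also called (adjusted p = 0.0146 and 0.0320, edgeR). With all 18 libraries Nfil3 and Bhlhe40 were not called (adjusted p = 0.0666 and 0.276, edgeR), and Arntl and Bhlhe41 did not pass the filter on low counts. Per1, Per2, Clock, Cry2 and Rora were tested and not called, at adjusted p of 0.107, 0.0580, 0.256, 0.658 and 0.0625 (edgeR).

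Fitted peaks of clock genes lay mostly a little later in the members than in the other fibroblasts. In the 9 genes called in both, they were a median of 0.62 h apart, and 1.28 h for Hlf, the widest gap, with 8 later in the members and Arntl earlier by 0.16 h. Over all 15 tested in both groups 14 were later, up to 2.55 h for Rora, which was called in neither. The 15 genes were measured in the same libraries and are not separate observations, and peak time alone was not tested. None of 18 clock genes tested passed the test of a difference in rhythm after adjustment, and 5 of 15 tested in both groups had an unadjusted p under 0.05, against 867 of 12493 over all genes, of which 0.232% passed after adjustment. Nfil3 was nearest, with a log2 range of 2.06 in the members and 3.77 in the others (adjusted p = 0.0785, edgeR). Its level was also higher in the members in all 13 libraries, at a mean of 49.2 CPM against 19.1. A p above the threshold does not show that the rhythms were alike.

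**Figure D4:**
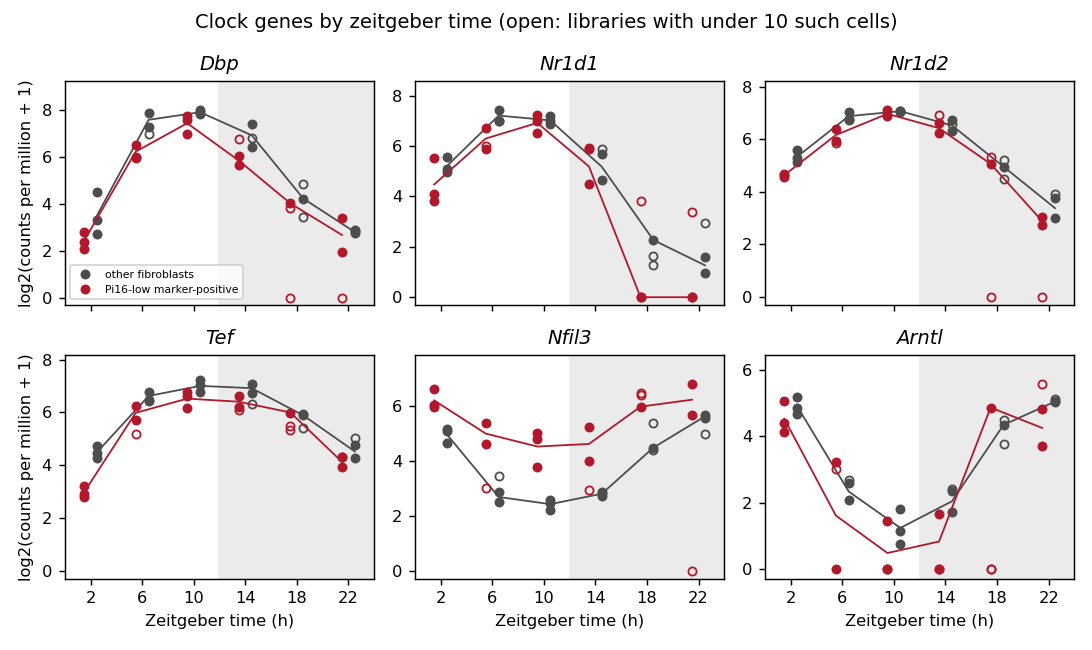
log2(CPM + 1) of 6 clock genes against zeitgeber time in hours, in the summed Pi16-low marker-positive cells (red) and other fibroblasts (grey) of each library. Lines join the means of the 13 libraries used in the test, and open points are the 5 libraries with fewer than 10 such cells. Dbp, Nr1d1, Nr1d2 and Tef are high at ZT10, Nfil3 and Arntl low, in both groups.

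The promoters of the called clock genes show which motifs of the clock lie near their starts. In windows from 250 bases before to 50 bases after each RefSeq start (build GRCm38.p6, the assembly behind mm10), 2 motifs were searched: CACGTG, the E-box bound by Arntl and Clock, which reads the same on both strands, and TTATGTAA, a D-box of the kind bound by Dbp, Tef and Hlf, on both strands. The 2 motifs do not overlap. Of all 32851 windows, 7.15% held the E-box and 0.938% the D-box, and of the 68 rhythmic genes 54 matched a window by symbol, 10 of them with an E-box (18.5%) and 2 with a D-box (3.70%), against 12.2% and 0.719% of the 4726 tested genes with a window. Of 16 clock genes with a window, 5 held an E-box (31.25%) and 1 a D-box (6.25%). The 4 windows below are those of called clock genes, 3 with a motif, in capitals, and that of Dbp, the gene with the smallest p, with neither. Tef has a second start whose window also holds an E-box. A match is a description of sequence and not a binding site, and no match says only that these letters are absent from this window.
Per3, chr4:151044616-151044915, minus strand: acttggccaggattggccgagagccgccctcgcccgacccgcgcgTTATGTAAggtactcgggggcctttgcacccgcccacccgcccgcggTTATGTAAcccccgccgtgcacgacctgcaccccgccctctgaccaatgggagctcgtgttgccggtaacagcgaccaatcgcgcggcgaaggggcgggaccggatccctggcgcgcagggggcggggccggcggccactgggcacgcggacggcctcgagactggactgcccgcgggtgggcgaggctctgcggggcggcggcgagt
Bhlhe41, chr6:145865371-145865670, minus strand: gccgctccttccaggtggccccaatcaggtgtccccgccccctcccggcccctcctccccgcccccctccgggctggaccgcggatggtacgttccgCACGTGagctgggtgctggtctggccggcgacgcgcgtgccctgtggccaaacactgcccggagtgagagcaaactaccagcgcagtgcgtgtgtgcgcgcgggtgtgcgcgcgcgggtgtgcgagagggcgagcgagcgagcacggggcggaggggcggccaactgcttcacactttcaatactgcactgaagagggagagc
Tef, chr15:81811164-81811463, plus strand: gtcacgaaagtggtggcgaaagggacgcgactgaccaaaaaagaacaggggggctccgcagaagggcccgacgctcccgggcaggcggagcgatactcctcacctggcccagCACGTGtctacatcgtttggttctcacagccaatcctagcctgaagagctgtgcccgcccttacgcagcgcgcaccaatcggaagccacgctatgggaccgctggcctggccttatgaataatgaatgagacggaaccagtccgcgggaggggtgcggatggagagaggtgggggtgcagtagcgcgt
Dbp, chr7:45704997-45705296, plus strand: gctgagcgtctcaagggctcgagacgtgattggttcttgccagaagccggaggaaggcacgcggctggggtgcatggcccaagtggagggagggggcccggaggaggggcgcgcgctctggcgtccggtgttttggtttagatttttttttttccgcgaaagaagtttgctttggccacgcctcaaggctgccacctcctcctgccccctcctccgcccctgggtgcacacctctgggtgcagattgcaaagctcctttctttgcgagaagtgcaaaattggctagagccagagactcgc

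Several rhythmic genes lay outside the clock. Klhl13, a ubiquitin ligase adaptor, was highest at ZT2, with 82.7, 94.4 and 61.8 CPM, and lowest around ZT10, with 22.8, 17.0 and 7.86 CPM, and had a fitted peak at ZT1.1 (adjusted p = 0.00119, edgeR). The ZT2 libraries were above all 10 others. Por, the electron donor of the cytochrome P450 enzymes, peaked at ZT12.2 with a log2 range of 1.60, and together with Fmo2 and Ephx1 made 3 of 22 tested xenobiotic and steroid enzymes that were called, against 1.15% of all genes. The call of Fmo2, a flavin-containing monooxygenase, was lost with all 18 libraries (adjusted p = 0.276, edgeR). Its peak was at ZT18.1 in the members and ZT14.9 in the others, and the test of the difference passed (adjusted p = 0.0119, edgeR). Slc6a6, the taurine transporter, peaked at ZT11.8. Klhl13, Por, Fmo2, Ephx1 and Slc6a6 were all called in the other fibroblasts too.

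Sgk1, a kinase induced by glucocorticoids, peaked at ZT10.8 with a log2 range of 3.28 (adjusted p = 0.00295, edgeR) and was not called in the other fibroblasts (adjusted p = 0.0702, edgeR), and the test of the difference passed (adjusted p = 0.0119, edgeR). It was at 264, 146 and 578 CPM at ZT10, and 31.3 and 19.1 CPM at ZT22. A single cell held 121 of its 884 UMIs. Of 15 glucocorticoid targets tested, Sgk1 and Angptl4, which peaked at ZT4.9, were the 2 called, and Angptl4 was not called with all 18 libraries (adjusted p = 0.674, edgeR). Gnai1, Scarf2, Cd44, Rgcc, Cys1 and Dtx4 were also among the 20 genes with the smallest adjusted p, at 0.00119 to 0.00705 (edgeR). Timp3, Gm12840, Tnmd and Csrnp1, described below, were among the 20 as well. Of 43 matrix genes tested 1, Thbs1, was called, and of 24 complement or chemokine genes 0, counts near the 1.15% over all genes.

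Gdf15, a stress-induced cytokine, had the largest fitted range of the called genes above 50 CPM, 12.0 on the log2 scale, but 163 of its 336 UMIs came from 1 cell of ZT14 replicate 2, and 11 of 298 cells had a UMI. G530011O06Rik, a noncoding transcript, was found in 39 cells, with 88 of its 236 UMIs in ZT18 replicate 3, the only library of that time. Dbp was spread more evenly, over 117 cells with at most 16 of 410 UMIs in 1 cell.

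Difference in rhythm between the Pi16-low marker-positive cells and the other fibroblasts of the same libraries was tested as an interaction with library as a block. Of 12493 genes, 29 (0.232%) passed and 867 had an unadjusted p under 0.05 (edgeR). The 2 with the smallest p encode Tnmd, tenomodulin, a glycoprotein of tendon fibroblasts, and Timp3, an inhibitor of matrix proteases. Timp3 (chr10:86300372-86349506, plus strand) was at 178, 71.6 and 118 CPM at ZT2, 176 and 160 at ZT6, 332, 518 and 330.2 at ZT10, 604 and 461 at ZT14, 361 at ZT18 and 192 and 152.5 at ZT22, against 888 to 1168 CPM in the other fibroblasts. Of these 13 libraries, the 6 of ZT10, ZT14 and ZT18 were all above the 7 others, but the 5 libraries left out, with 1 to 8 cells each, overlapped, at 415 CPM in ZT6 replicate 2, 262 in ZT14 replicate 1, 132 and 348 in ZT18 replicates 1 and 2, and 310 in ZT22 replicate 3. With all 18 libraries the difference did not pass (adjusted p = 0.0589, edgeR). The level of Timp3 stayed below that of the other fibroblasts throughout. In the 13 libraries, its log2 range was 2.22 with a peak at ZT13.8, against 0.19 (adjusted p of the difference = 0.000267, edgeR).

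Tnmd (chrX:133850980-133865577, plus strand) was at 279, 112 and 196.5 CPM at ZT10, 139 and 27.7 at ZT14, 41.1 at ZT18, and at 25.9 CPM or less in the other libraries of the test. It came from 42 of 298 cells, and 1 cell held 43 of its 361 UMIs. The log2 range was 5.80 against 0.55 (adjusted p of the difference = 0.000267, edgeR). Cthrc1, a secreted matrix-associated protein listed with Tnmd among markers of other fibroblast states, was also called in the members, with a peak at ZT11.3 beside ZT11.95 for Tnmd and a log2 range of 3.94 (adjusted p = 0.0378, edgeR), and its difference did not pass (adjusted p = 0.223, edgeR). They were the 2 called of 11 such markers tested, against 1.15% of all genes, and the part of cells in those states in these values was not tested. Of the 29 genes, 17 were also called rhythmic in the members, and for 24 the difference, members minus others, was fitted to peak between ZT9 and ZT16. Among the 29 were Csrnp1, Nr4a1 and Kdm6b, which immediate early signals induce, Btg1, an antiproliferative factor, and Irs2, an adaptor of insulin signaling. With all 18 libraries the rhythms of Csrnp1, Nr4a1 and Kdm6b in the members were not called (adjusted p = 0.0510, 0.165 and 0.2795, edgeR). Hpgd, which degrades prostaglandins, had the larger rhythm in the other fibroblasts (peak at ZT1.9, log2 range 2.38), with a range of 0.66 in the members.

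Immediate early genes were measured beside these differences. Nr4a1 alone of the 26 in that list passed the test of a difference, and 13 of 26 had an unadjusted p under 0.05, against 867 of 12493 over all genes. Of 25 complement and chemokine genes 15 had an unadjusted p under 0.05 for the difference and 0 passed (edgeR). In the libraries of the test, the immediate early genes' summed level in the members was 31623, 20155 and 45601 CPM at ZT2, and 25601 and 34870 at ZT6. It was 38660, 41282 and 46734 CPM at ZT10, 29214 and 42491 at ZT14, 34696 at ZT18, and 39806 and 21857 at ZT22. The highest library was thus at ZT10, and times overlapped. The part of digestion in the 29 genes was not tested. When the rule asked for 2 of 5 markers, in 16 libraries, 0 of the differences passed (edgeR, with 582 genes at an unadjusted p under 0.05), and with all 18 libraries 8 of the 29 did.

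**Figure D5:**
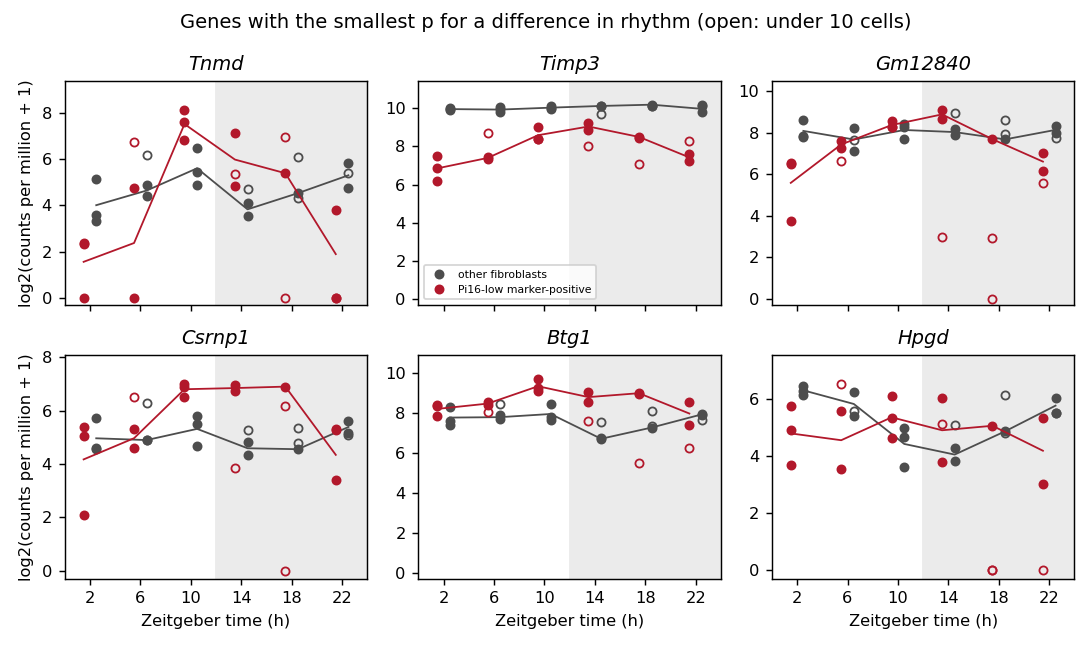
log2(CPM + 1) of the 6 genes with the smallest p for a difference in rhythm against zeitgeber time in hours, in the summed Pi16-low marker-positive cells (red) and other fibroblasts (grey) of each library, with open points for the 5 libraries with fewer than 10 such cells and lines through the means of the libraries tested. Among those, Timp3 is highest in the red points from ZT10 to ZT18 and Tnmd at ZT10.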

How the data were processed

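The authors made the deposited UMI counts per gene and barcode with Cell Ranger 3.1.0 against mm10, from Chromium 3' libraries; no counts were normalized. Counts were read as deposited, 32285 genes per library, and gated as stated. The members and the gene lists were chosen with earlier results of these data known. UMIs were summed per library over members and over other gated fibroblasts, and a library, 1 mouse, was the replicate. Rhythms were fitted with edgeR 4.0.16 (TMM normalization, filterByExpr, quasi-likelihood F test of the cosine and sine of 24 h, Benjamini-Hochberg), over libraries with at least 10 members, and differences in rhythm as an interaction with library as a block. Scripts were tested on simulated data: of genes given a rhythm of amplitude 1.0 (log2) among 5925, 61 of 67 were recovered in the members, 20 of 67 at amplitude 0.5, with 14 false calls. Levels used log2(CPM + 1) and no test. The share was tested with 100000 permutations.

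Genes named are the markers and rule genes, the 20 highest and 10 lowest level ratios on 1 side in all libraries at 50 CPM or more, the 20 smallest adjusted p and 5 largest ranges at 50 CPM or more among rhythmic genes, the 10 smallest p for a difference, and members of lists. Others were chosen after their values were seen. Alternatives were DESeq2 1.42.0, no filter, a replicate block, zeitgeber time as a factor, JTK_Cycle (periods of 20 to 28 h on counts per 10000, by an own implementation), rules of 2 or 4 markers, at least 20 members, thinned UMIs, removal of the highest Scrublet scores (scanpy 1.11.5, 0.8% per 1000 barcodes) and leaving out each library. Replicate numbers mark the day of collection. Deviations from the time means correlated at 0.0389 on average between members of libraries with the same number (18 pairs, -0.149 to 0.198) and at -0.0180 between different numbers, and in the other fibroblasts at 0.116 (45 pairs, -0.378 to 0.5405) against -0.0570. The total per library was 106 to 1513 gated fibroblasts. Sequences are from RefSeq, and gene positions from GENCODE for mm10. Motif windows matched by symbol only.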

Additional observations from a re-analysis of the deposited data

Results flagged for a closer look

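In 29 of 12493 genes the rhythm of the Pi16-low marker-positive cells differed from that of the other fibroblasts by a test of the difference itself (edgeR interaction, adjusted p under 0.05). The 10 with the smallest adjusted p (edgeR) were Tnmd (0.000267), Timp3 (0.000267), Gm12840 (0.000328), Csrnp1 (0.00538), Btg1 (0.00702), Hpgd (0.00702), Sntb2 (0.00941), Irs2 (0.00961), G530011O06Rik (0.00961) and Nr4a1 (0.0112). Each kept its call when any 1 of the 13 libraries was left out, and none kept it under the rule of 2 of 5 markers. The adjusted p of Timp3 was 0.529 with 2 of 5 markers, 0.0589 with all 18 libraries and 1 under the rule without its Pi16 condition. Gm12840, a long intergenic noncoding RNA, had a log2 range of 2.71 in the members and 0.06 in the others, and its adjusted p was 0.395 with all 18 libraries. Sntb2, a syntrophin, peaked at ZT14.5 in the members and at ZT0.3 in the others, with log2 ranges of 0.95 and 0.43. Irs2 had 74 of its 508 UMIs in 1 cell, and Nr4a1 81 of 837. The cause of these differences was not tested.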

How the results depend on the processing

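The members are few, at most 33 cells in a library, and 5 libraries with fewer than 10 were left out, which leaves ZT18 with 1 library. A single cell can then set a gene's value, as for Gdf15. Simulated differences in rhythm of amplitude 1.0 (log2) were recovered in 19 of 67 genes, so absent calls say little. The rule's limit on Pi16 lies at counts that background can reach, since 10.6% of Ptprc-positive cells without Pdgfra had 2 or more Pi16 UMIs. Cells just outside the limit resembled the members in Cxcl14.

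The 68 rhythmic genes of the members, of 5925 tested, became 133 of 5921 by DESeq2 and 472 of 15363 with no filter on low counts. They became 30 of 5925 with zeitgeber time as a factor, 45 of 6525 with 2 of 5 markers and 11 of 6092 with at least 20 cells (8 libraries). JTK_Cycle over 18 libraries gave 514 of 15562 at an unadjusted p under 0.05, a smaller share than that threshold, and 2 after adjustment. The rule without its Pi16 condition gave 1166 of 11146, from 5123 cells. The last, like the use of all 18 libraries (65 genes, 37 of the 68), was added after the data were seen. The replicate block gave 51 (47 of the 68), and leaving out each library 41 to 79, with 41 without ZT2 replicate 2. The 1254 genes of the other fibroblasts, of 13254, became 1954 of 13246 by DESeq2, 547 of 13254 with zeitgeber time as a factor and 114 of 6179 after thinning. With a library left out there were 749 to 1382, with 749 and 787 without ZT14 replicates 2 and 3. The 29 differences, of 12493 genes, became 0 of 10828 with 2 of 5 markers, 71 of 12924 with at least 20 cells and 8 of 6858 after thinning (7 of the 29). They became 261 of 21857 with no filter, 9 of 10305 with all 18 libraries and 1 of 12015 under the rule without its Pi16 condition. DESeq2 gave 33 of 4016 and the replicate block 34 of 12493 (28 of the 29). With a library left out there were 17 to 59 differences, with 17 without ZT2 replicate 2, 59 without ZT2 replicate 3 and 52 without ZT10 replicate 1. The replicate block changed no other count by over 1.5 times. Of the genes the rule uses, DESeq2 called 3 (Igfbp3, Penk and Pdgfra) and leaving out each library gave 1 to 2.

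The fraction of variance of the share explained by time was 0.554 thinned, 0.5004 with 4 markers, 0.369 with 2 and 0.584 with the replicate block, and 0.447 to 0.668 with a library left out, all past the threshold of the permutation test. Under the rule without its Pi16 condition it was 0.280 (permutation p = 0.0809). Genes higher in every library were 122 with 4 of 5 markers and 202 to 224 with a library left out, those lower 337 and 608 to 645, and 148 without the Pi16 condition. Of 22 named rhythmic genes 4 kept their call in every alternative run, and of 10 named differences 0. With at least 20 cells the adjusted p (edgeR) was 0.294 for Sgk1, 0.239 for Por, 0.1304 for Per3 and 0.0845 for Hlf. Of the 30 genes named for level, 29 moved by less than 1 SD, and Aldh1a3 moved to -7.91 (log2) with 4 markers. Under the rule without its Pi16 condition, the peaks of Csrnp1 and G530011O06Rik turned by over 6 h (adjusted p = 0.476 and 0.661, edgeR), as did those of the difference in Gm12840 and Hpgd (both adjusted p = 1, edgeR). The causes were not tested. The rule of 4 markers was not run for rhythms, since 4 libraries had 10 such cells.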

Other observations

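The genes described here were called rhythmic, lie outside the gene lists and were chosen after their values were seen, so they form no tested group. Icam1 and Vcam1, which bind leukocyte integrins, peaked at ZT13.9 and ZT17.0 in the Pi16-low marker-positive cells (adjusted p = 0.0104 and 0.0184, edgeR), and neither was called in the other fibroblasts (adjusted p = 0.685 and 0.861). The test of the difference did not pass for either (adjusted p = 0.21 and 0.0653), and with all 18 libraries Vcam1 was not called (adjusted p = 0.1525, edgeR). Il17ra, the receptor of interleukin 17, peaked at ZT11.3 and did pass that test (adjusted p = 0.021, edgeR). Pdpn, podoplanin, peaked at ZT14.7 (adjusted p = 0.0286, edgeR).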
